A study of Mus musculus and Acomys cahirinus with 16 samples.

Results

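Untreated skin of Acomys cahirinus, the African spiny mouse, was compared with untreated skin of the laboratory mouse (Mus musculus). The comparison used 8 of the 16 libraries of the series, 4 from spiny mouse skin and 4 from mouse skin, all from skin that had received no carcinogen or tumour promoter. The series concerns the resistance of spiny mice to skin tumours raised with DMBA, a carcinogen that mutates DNA, followed by TPA, a phorbol ester that promotes the growth of mutated cells. The untreated samples show how the skin of the species differed without those agents. The tissue is labelled skin in both groups. Age, sex, strain, body site and time of harvest are not given in the sources used here. Neither is whether each library came from a separate animal, so the p-values measure only the spread between these samples.

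Skin is built of an epidermis of keratinocytes, hair follicles with sebaceous glands, a dermis of fibroblasts, collagen, vessels and nerves, a fat layer, and in rodents a thin sheet of striated muscle under the fat. Resident macrophages, Langerhans cells, mast cells and T cells live in these layers. The spiny mouse is known for stiff guard hairs, for skin that tears easily, and for closing large skin wounds with new hair follicles, fat and dermis in place of a scar.

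Messenger RNA was counted against a separate annotation in each species, and 18110 genes whose symbol occurs once in each table were joined. Levels are given as TPM, which here means counts divided by the deposited gene length and scaled per library over the joined genes with TMM factors. On this scale levels can be set side by side between genes, and between species only as far as their gene models match. Differences are log2 spiny mouse minus mouse, tested with edgeR's quasi-likelihood test with a length offset over the 14911 genes that had enough counts. A gene is called at an adjusted p under 0.05, and a 2-fold call also needs a log2 difference of at least 1 in size. The test called 10055 genes, or 67.4% of those tested, of which 33.0% of all tested genes were higher in spiny mouse and 34.4% lower. 2-fold calls made up 17.4% of the genes tested on the higher side and 19.3% on the lower side, and these shares are the background against which each gene group below is read. Groups that did not overlap were found in 31.5% of tested genes with spiny mouse higher and in 31.5% with spiny mouse lower. The median log2 difference over all tested genes was -0.02. Across these genes the log2 ratio of spiny mouse to mouse gene length correlated with the log2 difference at Spearman -0.362. Genes with a shorter model in spiny mouse thus tended to read higher there. Higher calls were 48.9% of all calls with TMM scaling and 34.3% with scaling by the total of length-divided counts. The latter, called scaling by total counts below, moved the median by -0.29, and upper-quartile scaling moved it by -0.11.

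Because reads that fall on overlapping genes were not counted, a gene that overlaps a neighbour in only one annotation loses counts in only one species. Genes were therefore also described as a well-matched set, chosen after the data were seen. Its genes have lengths within 2-fold of each other, less than 10% of the exon length overlapped by another gene in either annotation, and no single-exon model in spiny mouse where mouse has several exons. It holds 10120 of the tested genes, of which 62.5% were called, 26.1% higher and 36.4% lower in spiny mouse. By the 2-fold rule 12.1% were higher and 17.9% lower, and the median log2 difference was -0.13. Genes named below belong to it unless said otherwise.

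The libraries held between 19608787 and 30561256 counts. Mouse replicate 2 stood apart from the other mouse libraries. Its longer genes were relatively higher (Spearman 0.414 across 14911 genes between gene length and its deviation from the other 3, against -0.359 to -0.188 in those). Its ribosomal protein genes summed to 34070 TPM against 65810 to 71750 TPM, and its hair shaft genes to 7849 TPM against 166.7 to 209 TPM. Mouse replicate 1 alone held liver transcripts at 1857 TPM summed over the liver list, with Alb at 699.6 TPM against 2.701 to 6.04 TPM in the other mouse libraries. The Y-linked genes Ddx3y, Eif2s3y and Uty had 1760 to 3080, 1297 to 1992 and 1283 to 2182 counts in the mouse libraries. They had 0 counts in all 4 spiny mouse libraries, where each has a gene model of its own without exon overlap. Xist, the RNA made from the inactive X chromosome, had 13 to 40 counts in the mouse libraries and was not analysed in spiny mouse. If the groups differ in sex, sex and species cannot be told apart in any result below. In bulk tissue, fewer cells of a type and less RNA per cell cannot be told apart either.

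The order of gene levels was largely shared by the species. Across all joined genes, Spearman's rho was 0.95 to 0.989 between mouse libraries, 0.985 to 0.993 between spiny mouse libraries and 0.852 to 0.871 between species, as a description over genes that are not independent. The 100 most abundant genes of each species had 50 in common (50% of each list), and the 1000 most abundant had 653 (65.3% of each). Acta1, the actin of skeletal muscle, Eef1a1, the elongation factor of protein synthesis, the ribosomal protein gene Rplp1 and the basal keratin Krt5 were in the top 10 of both. The mouse top 10 also held the keratins Krt10, Krt77 and Krt14, the desmosome gene Perp, the ribosomal protein gene Rplp0 and Krtdap, a gene of differentiating keratinocytes. In spiny mouse the places were taken by Atp2a1, the calcium pump of fast muscle, Rpl41, Actb, the fat and muscle carbonic anhydrase Car3, and the hair keratin-associated genes Krtap1-5 and Krtap7-1.

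Among well-matched genes, few that were abundant in one species were rare in the other. Abundant genes outside that set, such as Defb6 at 2962 TPM in mouse and 0 TPM in spiny mouse, were not counted here. By a rule chosen after the values were seen, 6 of the 349 well-matched genes in the mouse top 500 stood beyond rank 5000 in spiny mouse. They were Rarres1 (rank 153 in mouse and 10560 in spiny mouse), Paqr7 (330 and 5260), the complement genes C7 (403 and 13440) and C3 (430 and 10790), Chit1 (449 and 9299), and the iron carrier Trf (481 and 5911). In the opposite direction, 2 of 305 genes did so, the hair keratin-associated gene Krtap27-1 (rank 286 in spiny mouse and 12610 in mouse) and the carbonic anhydrase gene Car2 (496 and 10960). Krtap27-1 had 0, 11.3, 0 and 0 TPM in mouse replicates 1 to 4 and 1099, 891, 41.05 and 142 TPM in spiny mouse replicates 1 to 4, an order used for all such series of values here. Among the mouse libraries it was seen in replicate 2 alone. Car2 levels were 8.84, 7.18, 8.27 and 7.16 TPM in mouse and 378, 311.5, 288 and 260.1 TPM in spiny mouse. The 2 groups lay far apart, and the difference was 5.29 (SE 0.16, adjusted p = 3.40e-08). Rarres1, a membrane protein induced by retinoic acid, had 890, 372, 977.5 and 571.5 TPM in mouse and 9.499, 4.27, 8.57 and 8.35 TPM in spiny mouse, a difference of -6.51 (SE 0.40, adjusted p = 1.15e-06). Car2 lies on chromosome 3 of GRCm39 at 14951333 to 14965830 and on scaffold 16 of AcoCah2 at 86400163 to 86417280. Rarres1 lies on chromosome 3 at 67386305 to 67422856 and scaffold 7 at 106153097 to 106191761.

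The largest differences were often not well matched. They were ranked among genes with lengths within 2-fold, separate groups, at least 20 TPM in the higher species and at least 10 counts in every library of the lower species, which leaves out larger fitted values against groups near 0 counts. Of the 12 largest called differences on the higher side, 11 had 10% or more of their exon length overlapped in the mouse annotation, and Tnnc1 was the exception. They included Rpl24, Ube2v1, Ankrd23, Nme2, Sp6, Tnnc1, Nnt, Chkb, B3gnt2, Slc39a7 and Abcb6, with differences from 5.52 for Abcb6 to 7.73 for Rpl24. On the lower side Dsg1a, C7, Tcf20, Rarres1, Fam81a, Ifi203, Mrpl18, C1qtnf3, Prdx6, Clca3a1, C3 and Dkc1 ran from -8.97 for Dsg1a to -5.31 for Dkc1, and 6 of these 12 were overlapped in the spiny mouse annotation. Dsg1a, a desmosomal cadherin, is 97.7% overlapped there, so its level in spiny mouse cannot be read from these counts. Dkc1 lies on chromosome X in mouse and on scaffold 21 in spiny mouse. That scaffold also holds the spiny mouse models of Sry, Usp9y and Eif2s3y, Y-linked genes in mouse. Whether the Dkc1 models of both species are the same gene was not tested, so its difference is uncertain. Among well-matched genes of this ranking the largest differences on the lower side after C7 and Rarres1 were Fam81a (-6.16) and C1qtnf3 (-5.99), a secreted adipokine, while Tnnc1 led the higher side.

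Complement genes were mostly lower in spiny mouse skin, led by the central component C3 and by C7 and C6 of the membrane attack complex. Of 22 complement genes tested, 12 were 2-fold lower and 4 were 2-fold higher, with a median log2 difference of -1.52. Of the 14 well-matched ones 7 were lower and 2 higher, with a median of -1.17. Without mouse replicate 2 the counts were 14 lower and 4 higher. Among the 18 genes with a mean of at least 10 counts in each species they were 8 lower and 4 higher (median -0.87). C3 had 415, 123, 282 and 334.5 TPM in mouse and 4.598, 4.33, 5.83 and 12.4 TPM in spiny mouse. The lowest mouse library was far above the highest spiny mouse library, a 42.7-fold difference of the fitted means (-5.42, SE 0.50, adjusted p = 1.20e-05). C7, which joins the pore that complement inserts into membranes, had 308, 244, 363.5 and 271 TPM in mouse and 1.01, 1.44, 1.04 and 1.16 TPM in spiny mouse, a 255-fold difference (-7.99, SE 0.20, adjusted p = 2.61e-08). Without mouse replicate 1, the library with liver transcripts, C3 differed by -5.17 and C7 by -7.95. C3 lies on mouse chromosome 17 at 57510970 to 57535136 and on spiny mouse scaffold 16 at 50996353 to 51023443. C7 lies on chromosome 15 at 5018244 to 5093222 and scaffold 8 at 63954803 to 64010597.

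**Figure D1:**
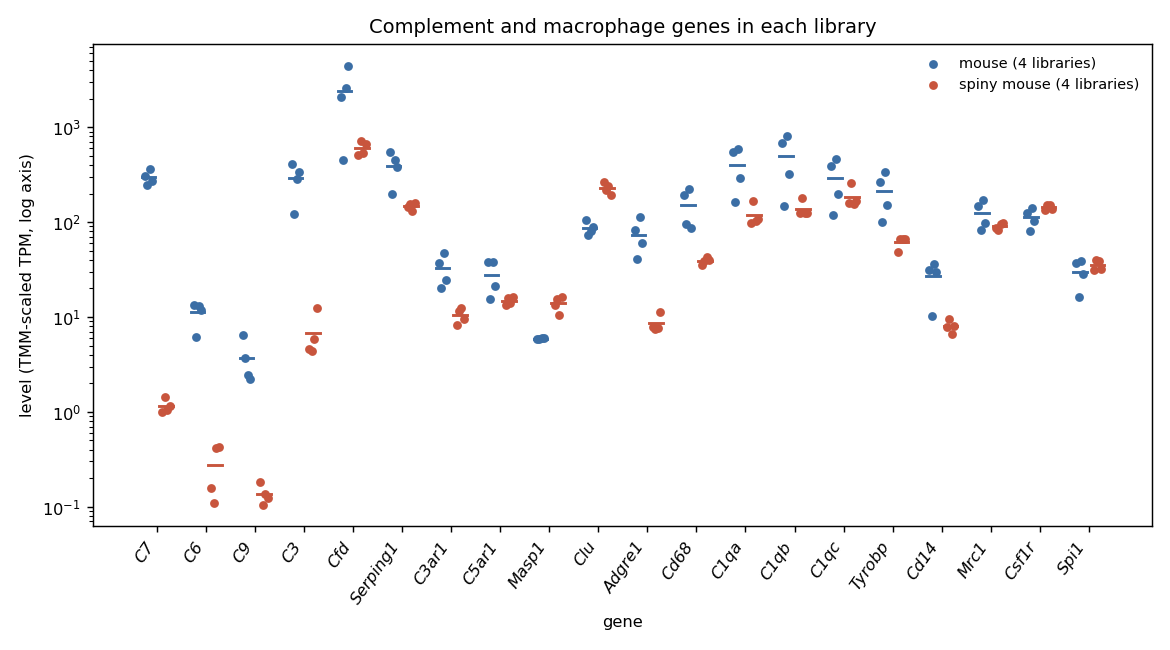
Level of complement and macrophage genes in each untreated library, on a log axis in TPM, with mouse in blue, spiny mouse in red and a bar at the mean of 4. C7 and C3 were 297 and 289 TPM on average in mouse and 1.16 and 6.78 TPM in spiny mouse.

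C6, the partner of C7 in the pore, was 13.5, 6.23, 13.1 and 11.8 TPM in mouse and 0.159, 0.1103, 0.415 and 0.426 TPM in spiny mouse (-5.32). C9, which completes it, was lower as well at 3.72 ± 1.99 against 0.137 ± 0.0329 TPM (-4.68; mean ± SD, n = 4, mouse first, as in all such pairs). The groups of C6 did not overlap. Serping1, the inhibitor of the C1 proteases, had 553, 196, 447 and 377 TPM in mouse and 145, 157, 130.2 and 160.3 TPM in spiny mouse (-1.41). The anaphylatoxin receptor C3ar1 was 32.5 ± 12.3 TPM in mouse and 10.5 ± 1.95 TPM in spiny mouse (-1.63). Cfd, the fat cell protease that starts the alternative pathway, had 2107, 448, 2581 and 4430 TPM in mouse and 505, 721, 539.5 and 665.5 TPM in spiny mouse. The groups overlapped although the fit called it lower (-1.98, adjusted p = 0.0087). 2 well-matched members were higher in spiny mouse, Clu, a chaperone that blocks the pore (86.7 ± 13.7 against 228.5 ± 29.2 TPM, 1.40), and Masp1, a protease of the lectin pathway (5.92 ± 0.106 against 13.99 ± 2.58 TPM, 1.24). C1ra, C1s1, Cd55 and Cd59a were also 2-fold lower but are not well matched, so their counts cannot be read as levels in the tissue.

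Of the macrophage genes, Adgre1, Cd68, Tyrobp and the C1q chain genes C1qa and C1qb were lower in spiny mouse, while the lineage regulator Spi1 and the mannose receptor Mrc1 did not pass the test. Of 19 tested, 7 were 2-fold lower and 1 higher (median -0.67), and of the 15 well-matched ones 6 were lower and 0 higher (median -0.74). Without mouse replicate 2 these were 9 lower and 0 higher of all tested. At the adjusted p threshold alone, 9 of the 19 were called lower and 3 higher, and 8 and 1 of the 15 well-matched ones. Adgre1, the F4/80 antigen of mouse macrophages, had 82.3, 40.5, 112 and 60.4 TPM in mouse and 7.81, 7.396, 7.67 and 11.3 TPM in spiny mouse. The groups did not overlap, and the difference was -3.11 (SE 0.31, adjusted p = 1.90e-05). Cd68, a lysosomal protein of phagocytes, was 150 ± 69.1 TPM in mouse and 39.2 ± 3.08 TPM in spiny mouse (-1.94). Tyrobp, an adaptor of myeloid receptors, was 213 ± 106 and 61.9 ± 9.21 TPM (-1.79). The C1q chain gene C1qb had 688, 147, 809 and 323 TPM in mouse and 125.5, 179.8, 124 and 126 TPM in spiny mouse (-1.83), where mouse replicate 2 fell among the spiny mouse values. C1qa showed the same arrangement at 401 ± 207.5 and 119 ± 32.9 TPM (-1.75). Spi1 had 30.1 ± 10.2 TPM in mouse and 35.5 ± 4.54 TPM in spiny mouse (0.24, adjusted p = 0.412). Mrc1 was 125 ± 41.5 and 90.4 ± 6.88 TPM (-0.46, adjusted p = 0.0852). Without mouse replicate 2 Mrc1 was called lower (-0.62, adjusted p = 0.00728). Chit1, a chitinase of activated macrophages, had 312, 156, 286.5 and 343 TPM in mouse and 11.4, 10.4, 15.7 and 12.2 TPM in spiny mouse (-4.46).

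Of the 20 genes listed for Langerhans cells, dendritic cells and MHC class II, 6 were 2-fold lower and 0 higher (median -0.40), but only 2 of the 13 well-matched ones were, Itgax and Cd86. Itgax, the CD11c integrin chain of dendritic cells, had 11.5, 14.7, 15.5 and 7.85 TPM in mouse and 0.193, 0.0893, 0.349 and 0.3103 TPM in spiny mouse (-5.69, adjusted p = 1.44e-06). Its groups did not overlap, at a low level in both species. Cd86, a co-stimulator of T cells, was 9.18 ± 3.496 and 4.51 ± 0.484 TPM (-1.03). The class II gene H2-Eb1 did not pass the test at 617 ± 208 and 472 ± 57.5 TPM (-0.39) except without mouse replicate 2 (-0.60, adjusted p = 0.0011). Epcam, carried by Langerhans cells and by follicle epithelium, was 204 ± 41.8 and 216 ± 16.6 TPM (0.08). The Langerhans lectin Cd207 was lower but is not well matched (42.5 ± 12.9 and 9.49 ± 2.75 TPM, -2.16).

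Of 25 genes tested that interferons induce, 8 were 2-fold lower and 2 higher (median -0.45), and of the 20 well-matched ones 7 were lower and 0 higher. Oas2, which makes the second messenger that activates RNase L, had 8.37, 8.35, 7.57 and 6.86 TPM in mouse and 0.7104, 0.576, 0.882 and 0.413 TPM in spiny mouse (-3.57). Oas3 was 5.55 ± 2.46 and 0.406 ± 0.2002 TPM (-3.74). Zbp1, a sensor that can start necroptosis, was 12.99 ± 5.94 and 2.98 ± 0.129 TPM (-2.12). Isg15, a ubiquitin-like protein, had 91.4, 12.9, 78.5 and 74.8 TPM in mouse and 11.6, 11.3, 17.1 and 5.91 TPM in spiny mouse (-2.48), with overlapping groups. The transcription factor Irf7 (46.3 ± 25.2 and 54.2 ± 3.34 TPM, 0.23) and Irf9 (31.3 ± 6.35 and 27.8 ± 2.29 TPM, -0.17) did not pass the test. Irf9 was called lower without mouse replicate 2 (-0.30, adjusted p = 0.0143). Ifitm1, an interferon-induced membrane protein outside the list, was higher, with 15.7, 8.67, 21.2 and 24.6 TPM in mouse and 201, 157, 295 and 264 TPM in spiny mouse (3.70). Ifitm genes are close copies of one another, so its value is uncertain.

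T cell and natural killer genes did not move one way: 6 of 23 were 2-fold higher and 4 lower (median 0.32), and 4 and 3 of the 15 well-matched ones. Thy1, carried by T cells and also by fibroblasts and nerves, had 100.3, 52.1, 104 and 87.8 TPM in mouse and 562, 564, 619.5 and 580.2 TPM in spiny mouse (2.76, SE 0.21, adjusted p = 3.66e-06). The groups did not overlap. Among markers closer to T cells, the adaptor Lat was higher at 4.94 ± 1.05 and 13.9 ± 2.405 TPM (1.49), as was the kinase Lck at 4.71 ± 0.477 and 9.36 ± 1.87 TPM (0.99). In contrast Cd3d (5.96 ± 1.84 and 7.46 ± 2.17 TPM, 0.32) and Cd2 (5.85 ± 0.673 and 5.79 ± 1.11 TPM, -0.02) did not pass the test. The costimulatory receptors Cd28 (2.76 ± 1.03 and 1.31 ± 0.312 TPM, -1.08) and Ctla4 (2.33 ± 0.667 and 1.04 ± 0.2303 TPM, -1.15) were lower.

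Of 11 mast cell genes tested, 4 were 2-fold higher in spiny mouse and 3 lower, and of the 7 well-matched ones 3 and 0. Cpa3, the carboxypeptidase of mast cell granules, had 70.3, 38.2, 81.5 and 51.1 TPM in mouse and 117, 110.1, 147 and 139.7 TPM in spiny mouse (1.09). The stem cell factor receptor Kit, also carried by melanocytes, was 7.19 ± 3.83 and 26.7 ± 1.897 TPM (1.89). Ms4a2, a chain of the IgE receptor, was 3.97 ± 0.504 and 12.9 ± 4.63 TPM (1.71). The groups of all 3 genes were separate. The chymase Cma1 did not pass the test (64.8 ± 27.7 and 51.6 ± 8.44 TPM, -0.33) except without mouse replicate 2 (adjusted p = 0.048), and Mcpt4, at 0 TPM in every spiny mouse library, is not well matched.

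Neutrophil genes went both ways. Of the 7 tested 4 were 2-fold higher and 1 lower. Mmp8, the neutrophil collagenase, had 0.904, 0.571, 1.47 and 0.933 TPM in mouse and 29.9, 24.2, 35.5 and 38.7 TPM in spiny mouse (5.01, adjusted p = 5.80e-07). Camp, the cathelicidin peptide gene, was 1.78 ± 1.28 and 17.5 ± 2.11 TPM (3.32). The lactoferrin gene Ltf was 0.176 ± 0.132 and 5.44 ± 0.392 TPM (4.89). The gelatinase gene Mmp9, also made by other cells, was lower at 38.1 ± 20.9 and 12.6 ± 4.11 TPM (-1.59), as was the receptor gene Csf3r at 7.13 ± 1.204 and 4.35 ± 1.13 TPM (-0.71), a call that ended without mouse replicate 3 (adjusted p = 0.0532). Cxcr2 did not pass the test (2.63 ± 1.58 and 1.02 ± 0.349 TPM, -1.36) except without mouse replicate 2 (-1.72, adjusted p = 0.000649) or under scaling by total counts (adjusted p = 0.0321). Without mouse replicate 2 the counts were 4 higher and 3 lower of 8, and without a filter on low counts 4 and 5 of 13. Lyz1, a lysozyme gene, had 186, 60.1, 129 and 68.3 TPM in mouse and 1132, 1511, 1160 and 1309 TPM in spiny mouse (3.53). Lysozyme has close gene copies in rodents, so its value is uncertain. S100a8, one chain of calprotectin, is made by neutrophils and by activated keratinocytes. It had 48.4, 7.98, 112 and 55.1 TPM in mouse and 686, 457, 574 and 489 TPM in spiny mouse (3.29, and 3.90 without mouse replicate 3). Its partner S100a9 had 71.7, 12.5, 66.4 and 80.5 TPM in mouse and 55.2, 21.6, 55.7 and 41.98 TPM in spiny mouse. S100a9 did not pass the test (-0.41, adjusted p = 0.486) except without mouse replicate 2 (-0.73, adjusted p = 0.0389). Of 22 cytokines and chemokines tested, 5 were 2-fold higher and 1 lower (median 0.24, and -0.001 under scaling by total counts). Il33, an alarmin of epithelial and stromal cells, was 68.1 ± 25.7 and 203.5 ± 61.3 TPM (1.58). Cxcl5, which attracts neutrophils, was 1.33 ± 1.56 and 15.5 ± 3.24 TPM (3.50, and 4.61 without mouse replicate 3).

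**Figure D2:**
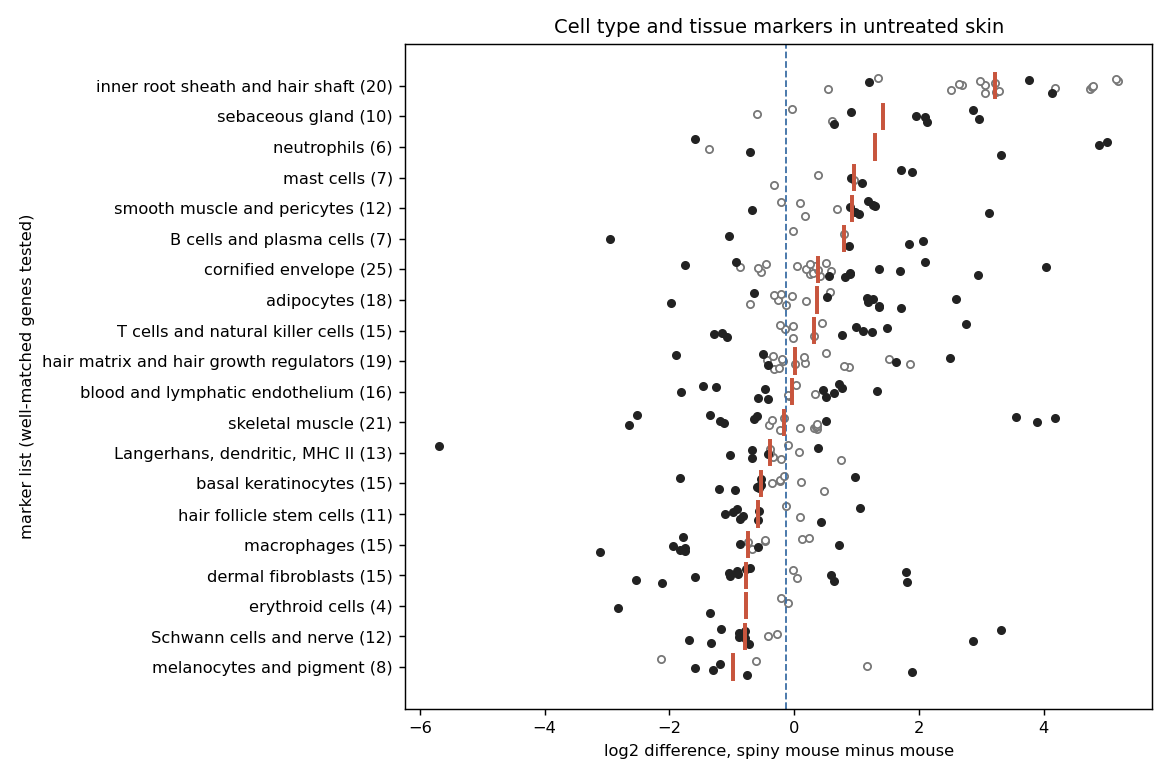
Log2 difference (spiny mouse minus mouse) of each well-matched marker gene in the lists for cell types and tissues, filled where the test called it and open where it did not, with a red bar at the list median and a dashed line at the median of all well-matched genes, -0.128. Macrophage genes lie mainly to the lower side and sebaceous and smooth muscle genes to the higher side.

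Tnnc1, Tnni1, Tnnt1 and Myl2, which encode proteins of slow striated muscle fibres, were higher in spiny mouse. Tnnc1, the troponin C of slow muscle and heart, had 3.402, 2.66, 3.73 and 2.897 TPM in mouse and 165, 189, 242 and 207.5 TPM in spiny mouse, a 62.6-fold difference (5.97, SE 0.18, adjusted p = 4.02e-08). It lies on mouse chromosome 14 at 30930269 to 30933686 and on spiny mouse scaffold 9 at 107682414 to 107685735. The slow troponin I gene Tnni1 had 2.01, 2.69, 12.4 and 1.68 TPM in mouse and 75.1, 88.8, 96.5 and 84.6 TPM in spiny mouse (4.18, and 5.36 without mouse replicate 3). Slow troponin T, Tnnt1, had 7.27, 9.24, 12.3 and 5.13 TPM in mouse and 89.2, 92.2, 124.5 and 95.1 TPM in spiny mouse (3.56). The slow myosin light chain Myl2 had 4.32, 1.62, 1.83 and 8.699 TPM in mouse and 61.2, 47.8, 78.3 and 56.9 TPM in spiny mouse (3.90, and 4.55 without mouse replicate 4). In none of these genes did the groups overlap. Further genes, chosen after their values were seen, included Myh6, a myosin heavy chain of the heart, at 0.111 ± 0.145 and 36.9 ± 6.81 TPM (8.41). The calcium pump Atp2a2, made in slow fibres and in many other cells, was 147 ± 5.06 and 302 ± 18.8 TPM (1.04). Both were higher. The slow calsequestrin Casq2 did not pass the test (14.4 ± 4.25 and 14.9 ± 2.64 TPM, 0.05).

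Among fast fibre genes, Myh1, the IIx myosin heavy chain, had 1212, 3188, 1445 and 1554 TPM in mouse and 268, 316.5, 307 and 292 TPM in spiny mouse (-2.64). Myh4, the IIb chain, had 1321, 2087, 648 and 1054 TPM in mouse and 1793, 1362, 1334 and 2112 TPM in spiny mouse. Myh4 did not pass the test (0.37, adjusted p = 0.359; without mouse replicate 2, 0.71 and 0.0306). Myh1 groups did not overlap. Myosin heavy chain genes are close copies of one another, which can shift counts between them. The giant spring protein Ttn was lower at 883 ± 750.4 and 154.5 ± 43.99 TPM (-2.52, and -1.72 without mouse replicate 2), as was the thin filament ruler Neb at 459.6 ± 262 and 201 ± 46.5 TPM (-1.20). Acta1 had 11060, 12180, 11730 and 10800 TPM in mouse and 9949, 9426, 9009 and 10550 TPM in spiny mouse. It did not pass the test (-0.23), but did under scaling by total counts (-0.53, adjusted p = 0.028). Of 29 muscle genes tested, 5 were 2-fold higher and 7 lower (median -0.04), and of the 21 well-matched ones 3 and 5. Without the length correction 5 of 29 were higher and 4 lower. The fast troponin C gene Tnnc2 and the fast light chain Mylpf are not well matched, and their counts were not read as levels.

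**Figure D3:**
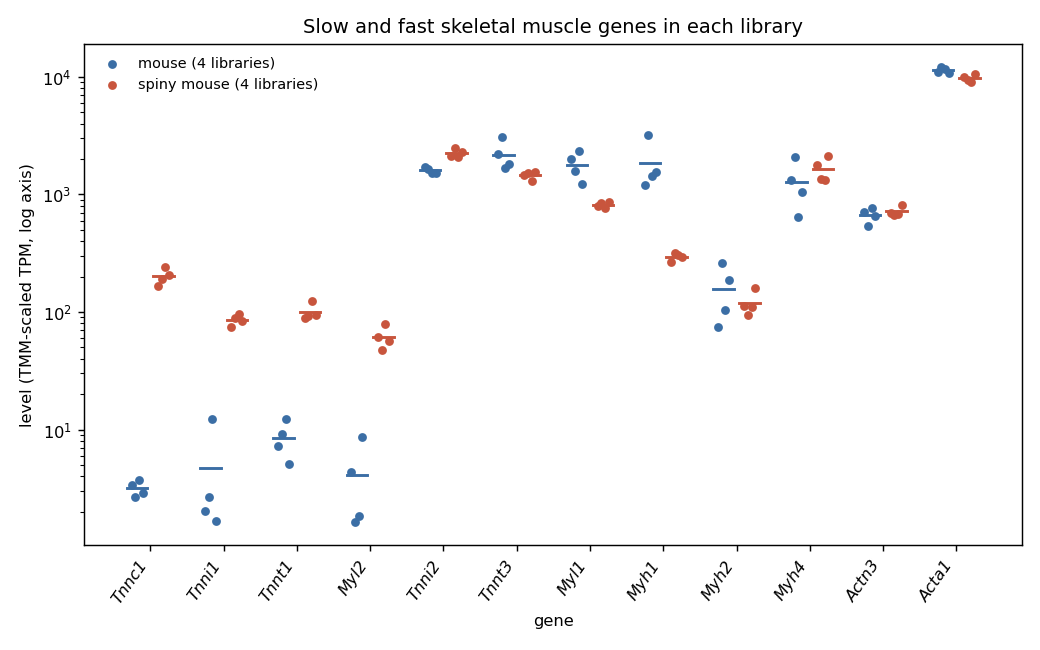
Level of striated muscle genes in each untreated library, on a log axis in TPM, with mouse in blue, spiny mouse in red and a bar at the mean of 4. The groups of Tnnc1 (3.17 and 201 TPM on average) were separate between the species, and Acta1 was 11440 and 9733 TPM.

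Smooth muscle and pericyte genes were higher in 5 of 14 tested by the 2-fold rule and lower in 1 (median 0.79), and the 12 well-matched ones gave 5 and 0. Under scaling by total counts 2 of 14 were higher. The summed level of the list did not differ in the same way, at 1783 to 2007 TPM in mouse and 1765 to 2106 TPM in spiny mouse. Cnn1, a calponin of contractile smooth muscle, had 5.61, 5.56, 8.23 and 8.47 TPM in mouse and 64.4, 40.9, 58.5 and 79.95 TPM in spiny mouse (3.13). The groups were separate. Acta2, smooth muscle actin, was 156 ± 19.4 and 320.3 ± 59.9 TPM (1.04). The smooth muscle myosin Myh11 was 24.4 ± 8.63 and 58.5 ± 16 TPM (1.26). The pericyte regulator Rgs5 was 91.4 ± 13.1 and 208 ± 10.7 TPM (1.19). Pdgfrb, the receptor that recruits pericytes, did not pass the test (49.1 ± 5.39 and 42.5 ± 4.41 TPM, -0.21).

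Endothelial genes were divided, with 3 of 20 2-fold higher, 4 lower and a median of -0.03. Without the length correction 0 were higher and 2 lower. Pecam1, the junction protein CD31, had 36.7, 37.8, 36.6 and 33.1 TPM in mouse and 82.2, 86.5, 90.7 and 102 TPM in spiny mouse (1.32). Cdh5, the endothelial cadherin, was lower at 40.7 ± 2.02 and 30.5 ± 2.08 TPM (-0.42). The angiopoietin receptor Tek was lower too, at 21.8 ± 1.54 and 7.94 ± 0.967 TPM (-1.46). Esam (24.5 ± 2.08 and 23.2 ± 4.401 TPM, -0.08) and Tie1 (16.4 ± 1.04 and 16.7 ± 1.95 TPM, 0.02) did not pass the test. Mmrn1, of lymphatic vessels, was lower (24.6 ± 7.33 and 6.99 ± 1.97 TPM, -1.82).

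Of 14 Schwann cell and nerve genes, 10 were called lower and 2 higher, against a background of 34.4% and 33.0%, and by the 2-fold rule 5 and 2. The 2-fold counts were 10 and 2 under scaling by total counts and 1 and 2 without the length correction. Mbp, of the myelin sheath, was 55.03 ± 8.52 and 31.7 ± 3.61 TPM (-0.80). The sodium channel gene Scn7a was 32.1 ± 3.58 and 14.2 ± 0.427 TPM (-1.18). S100b, a calcium-binding protein of Schwann cells that is also made by fat cells, was higher at 9.32, 7.33, 5.76 and 6.22 TPM in mouse and 72.05, 68.4, 69.4 and 73.98 TPM in spiny mouse (3.31). Gfra3, a receptor for the neurotrophic factor artemin, was higher too, at 3.49 ± 1.09 and 25.5 ± 5.45 TPM (2.87).

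Fat cell genes were higher in 9 of 21 tested by the 2-fold rule and lower in 1 (median 0.57), and in 7 and 1 of the 18 well-matched ones. Lep, the hormone leptin, had 97.04, 22.3, 80.9 and 43.8 TPM in mouse and 372, 363, 387 and 349 TPM in spiny mouse. The groups were separate, with a difference of 2.59 (SE 0.39, adjusted p = 2.90e-04). The lipid droplet coat gene Plin1 had 131, 41.97, 112 and 178 TPM in mouse and 248, 296, 231 and 269 TPM in spiny mouse (1.17). Cidea, which fuses lipid droplets and is also made in sebaceous glands, was 128 ± 39.3 and 291.5 ± 49.2 TPM (1.19). Car3 had 2380, 1563, 2518 and 2725 TPM in mouse and 6047, 6053, 5186 and 6299 TPM in spiny mouse (1.36). The adipokine gene Adipoq had 354.5, 58.4, 331 and 407 TPM in mouse and 832, 768.5, 629.9 and 718 TPM in spiny mouse (1.36, adjusted p = 0.0267). This call ended without spiny mouse replicate 1 (adjusted p = 0.0576) or replicate 2 (adjusted p = 0.0544). The insulin-responsive glucose transporter Slc2a4 was lower (109.8 ± 16.6 and 70.1 ± 8.78 TPM, -0.65), and the master regulator Pparg did not pass the test (30.7 ± 5.22 and 24.5 ± 3.14 TPM, -0.33) except without mouse replicate 2 (-0.44, adjusted p = 0.00534). The summed level of the list was 3407 to 10910 TPM in mouse, with the lowest value in replicate 2, and 10430 to 11940 TPM in spiny mouse. 6 of 21 were higher and 1 lower without mouse replicate 2, and 5 and 1 without the length correction.

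Sebaceous gland genes were higher in 7 of 15 tested by the 2-fold rule and lower in 3, and the 10 well-matched ones were higher in 5 and lower in 0 (median 1.43). Elovl3, which lengthens fatty acids for sebum, had 163, 88.98, 152 and 93.8 TPM in mouse and 868, 679, 1288 and 1028 TPM in spiny mouse (2.96). Fa2h, a fatty acid hydroxylase, had 434, 396, 401 and 322.5 TPM in mouse and 1489, 1162, 2176 and 1796 TPM in spiny mouse (2.09). The wax ester synthase Awat1 had 218, 39.4, 278 and 197 TPM in mouse and 769, 587, 1070 and 783 TPM in spiny mouse (2.13). The groups of Fa2h and Awat1 were separate, as were those of Mc5r, the melanocortin receptor that drives sebum secretion (16.6 ± 4.94 and 64.2 ± 18.3 TPM, 1.95). The desaturase genes Scd1 and Scd3 were lower (-1.34 and -3.75) but are close copies and not well matched.

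Of 15 genes of basal keratinocytes, 8 were called lower in spiny mouse and 1 higher, and 2 and 0 by the 2-fold rule. Krt5 had 6396, 4755, 4962 and 6908 TPM in mouse and 6187, 5788, 6670 and 6139 TPM in spiny mouse (0.11). Its partner Krt14 had 5833, 3484, 4787 and 6345 TPM in mouse and 4013, 3889, 4110 and 3918 TPM in spiny mouse (-0.36). Neither passed the test, although Krt14 was called lower without mouse replicate 2 (-0.51, adjusted p = 0.0051). Col17a1, the collagen of hemidesmosomes, had 947, 1133, 756 and 1145 TPM in mouse and 522, 395, 616 and 524.5 TPM in spiny mouse (-0.95). The plakin Dst was 134 ± 48.4 and 57.9 ± 12.9 TPM (-1.21). The integrin chains Itga6 (155 ± 13.6 and 103 ± 14.1 TPM, -0.59) and Itgb1 (299 ± 47.6 and 202 ± 7.87 TPM, -0.56) were lower by less than 2-fold. The lineage factor Trp63 did not pass the test (177 ± 14.1 and 157 ± 19.7 TPM, -0.17).

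Genes of the differentiating layers were higher in 6 of 27 tested by the 2-fold rule and lower in 2 (median 0.37), and in 5 and 1 of the 25 well-matched ones. Under scaling by total counts 4 were higher and 4 lower. Casp14, the protease that processes filaggrin, had 123, 80.2, 83.9 and 125 TPM in mouse and 1017, 510, 939.7 and 721 TPM in spiny mouse (2.95, SE 0.26, adjusted p = 9.89e-06). The groups did not overlap. The suprabasal keratin Krt1 had 1376, 747, 923 and 1258 TPM in mouse and 3009, 2062, 3085 and 2880 TPM in spiny mouse (1.36). Its partner Krt10 had 8685, 3031, 7188 and 8725 TPM in mouse and 4648, 3856, 5398 and 4585 TPM in spiny mouse. It did not pass the test (-0.58) except without mouse replicate 2 (-0.83, adjusted p = 0.000796). Krt77, a keratin paired with Krt10 in mouse skin, had 7150, 2018, 6339 and 8820 TPM in mouse and 3280, 2525, 4040 and 3420 TPM in spiny mouse. It did not pass the test either (-0.88, adjusted p = 0.0762), again except without mouse replicate 2 (-1.16, adjusted p = 0.000325). Krt2, a keratin of the upper layers, had 7.68, 2.65, 8.98 and 2.67 TPM in mouse and 6.04, 202, 82.99 and 73.9 TPM in spiny mouse (4.04, and 3.32 without spiny mouse replicate 2). Hornerin, Hrnr, was higher at 151 ± 61.6 and 491 ± 79.2 TPM (1.70). Suprabasin, Sbsn, was lower at 419 ± 117 and 125 ± 20.3 TPM (-1.75). The envelope gene Lce1m (1665 ± 719.8 and 1718 ± 263 TPM, 0.05) and the shedding protease Klk7 (762 ± 358 and 865 ± 195 TPM, 0.18) did not pass the test. Ly6d, a surface protein of differentiating keratinocytes, was lower, with 2294, 828, 2061 and 2140 TPM in mouse and 189.7, 158, 93.7 and 85.99 TPM in spiny mouse (-3.79).

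Of 13 genes that keratinocytes switch on after wounding, 5 were 2-fold higher and 1 lower. The counts were 2 and 1 under scaling by total counts and 3 and 1 without mouse replicate 4. Krt78, a keratin gene, was the lower one, with 63.7, 46.5, 53.9 and 81.5 TPM in mouse and 17.3, 13.3, 16.5 and 17.9 TPM in spiny mouse (-1.92). The other keratins tested did not pass the test. Krt17 had 2456, 1659, 2129 and 2943 TPM in mouse and 3170, 2987, 2095 and 2096 TPM in spiny mouse (0.17). Krt16 was 300.4 ± 232 and 409 ± 319 TPM (0.45). The connexin gene Gjb2 had 42.9, 266.5, 31.2 and 78.4 TPM in mouse and 685, 585.5, 225 and 296 TPM in spiny mouse (2.10, and 3.14 without mouse replicate 2). This call ended without mouse replicate 4 (adjusted p = 0.0534) and under scaling by total counts (adjusted p = 0.0673). Sprr1b, a cornified envelope precursor, was 30.7 ± 18.4 and 169 ± 53.6 TPM (2.46).

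Hair genes depended on mouse replicate 2. The summed level of the hair shaft and inner root sheath list was 167, 7849, 209 and 193 TPM in mouse replicates 1 to 4 and 52640, 48970, 3084 and 8769 TPM in spiny mouse. The mouse libraries other than replicate 2 were below every spiny mouse library, and spiny mouse replicates 1 and 2 were above replicates 3 and 4. With all 8 libraries 5 of 24 genes were 2-fold higher and 1 lower (median 3.14). The DESeq2 test gave 10 and 1, and a fit with the replicate number as a block 21 and 1. Without mouse replicate 2 the counts were 23 and 1 (median 8.80), and on leaving out mouse replicate 1, 3 or 4 or spiny mouse replicate 1 or 2 they were 2 and 1, as under scaling by total counts. Krt86, a keratin of the hair shaft, had 0.859, 462, 1.34 and 0.576 TPM in mouse and 9681, 6201, 234 and 507 TPM in spiny mouse. Krt86 did not pass the test (5.16, adjusted p = 0.0675; without mouse replicate 2, 0.000215). Krt71, of the inner root sheath, had 1.77, 1481, 18.9 and 0.948 TPM in mouse and 4729, 5539, 528 and 1671 TPM in spiny mouse. Krt71 did not pass the test (3.05, adjusted p = 0.181; without mouse replicate 2, 0.000318). Krt84, a keratin of hair and hard epithelia, was called at 1.28, 20.7, 1.41 and 2.64 TPM in mouse and 198, 143, 3.85 and 2.84 TPM in spiny mouse (3.76), with overlapping groups. The call ended on leaving out mouse replicate 1, 3 or 4 or spiny mouse replicate 1 or 2 (adjusted p from 0.0875 to 0.111). Hair keratin genes are close copies of one another, and reads that matched several of them were not counted.

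**Figure D4:**
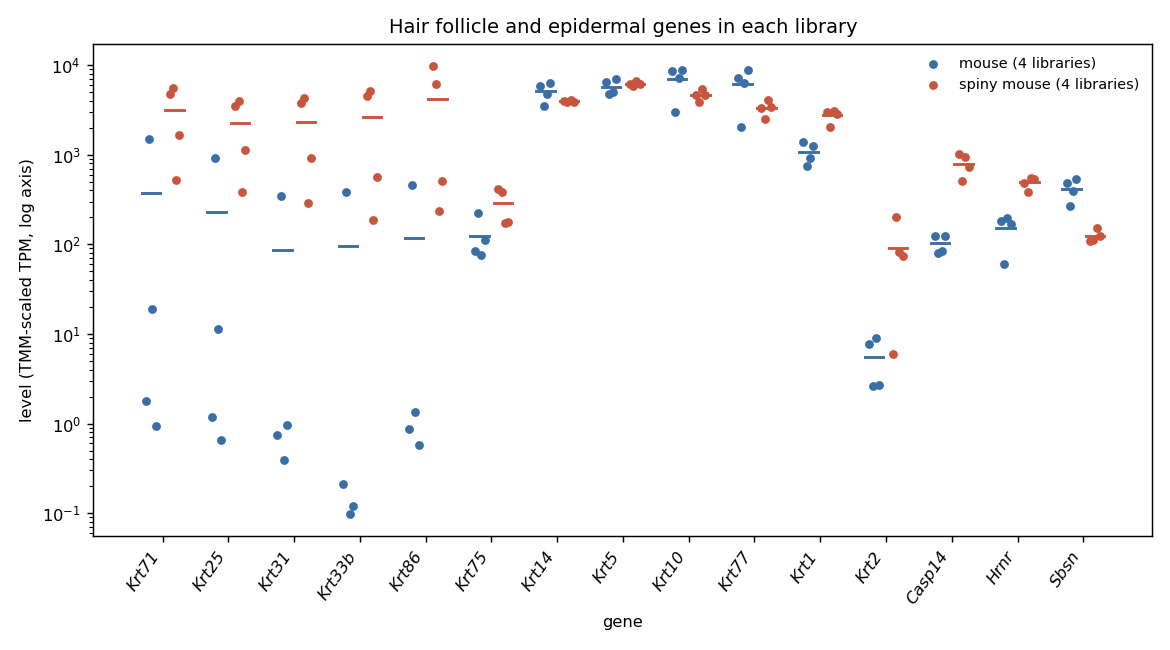
Level of hair and epidermal genes in each untreated library, on a log axis in TPM, with mouse in blue, spiny mouse in red and a bar at the mean of 4. Mouse replicate 2 lies apart from the other mouse libraries in hair keratins, while the groups of Casp14 are separate.

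Regulators of hair growth showed the same dependence, with 3 of 23 2-fold higher and 2 lower, and 8 and 2 without mouse replicate 2. On leaving out mouse replicate 1, 3 or 4 or spiny mouse replicate 1 or 2, and under scaling by total counts, 0 were higher and 2 lower, and without spiny mouse replicate 3 these were 6 and 2. Msx2, a factor of the hair matrix, had 2.93, 28.8, 3.13 and 4.71 TPM in mouse and 74.1, 97.3, 12.7 and 37.7 TPM in spiny mouse (2.50, and 3.96 without mouse replicate 2). The call ended on leaving out mouse replicate 1, 3 or 4 or spiny mouse replicate 1 or 2 (adjusted p from 0.0543 to 0.0683). Shh, a signal of the growing follicle, had 0.0592, 5.07, 0.436 and 0.331 TPM in mouse and 7.904, 15.2, 1.69 and 6.72 TPM in spiny mouse. It is not well matched and did not pass the test (2.45) except without mouse replicate 2 (adjusted p = 0.000712) or spiny mouse replicate 3 (adjusted p = 0.0364). Among follicle stem cell genes, 3 of 18 were 2-fold lower and 2 higher, and 9 were called lower and 4 higher. The 2-fold counts were 7 lower and 1 higher under scaling by total counts, and 5 and 2 without mouse replicate 3. The bulge keratin Krt15 had 2846, 2755, 2116 and 3000 TPM in mouse and 1382, 1213, 2106 and 1398 TPM in spiny mouse (-0.81). Lgr6 was 52.2 ± 9.54 and 26.4 ± 8.16 TPM (-0.99), and Sox9 did not pass the test (104 ± 27.3 and 95.02 ± 20.9 TPM, -0.13). Melanocyte genes were lower in 4 of 13 by the 2-fold rule and higher in 1, which became 1 and 4 without mouse replicate 2, and 2 and 1 without spiny mouse replicate 3 or 4. Mitf, the master regulator of pigment cells, had 36.9, 41.3, 40.3 and 31.2 TPM in mouse and 18.2, 15.01, 15.1 and 12.7 TPM in spiny mouse (-1.30).

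Dermal collagens differed by type. Col1a1, a chain of the main fibrillar collagen, had 1590, 3070, 2945 and 2188 TPM in mouse and 812, 974, 544 and 639.7 TPM in spiny mouse (-1.72, SE 0.28, adjusted p = 4.48e-04). The groups did not overlap. Col3a1, of the finer fibrils, had 1151, 1056, 2117 and 1226 TPM in mouse and 1243, 1646, 913 and 1004 TPM in spiny mouse. It did not pass the test (-0.21). Col6a2 was higher at 79.5 ± 11.8 and 176 ± 19.6 TPM (1.15), as were Col12a1, which coats fibrils (21.99 ± 10.5 and 47.3 ± 6.91 TPM, 1.11), and Col4a1, of basement membranes (106 ± 11.4 and 168.5 ± 35.2 TPM, 0.66). The calls of Col12a1 and Col4a1 ended under scaling by total counts (adjusted p = 0.0853 and 0.147). Col7a1, the anchoring fibril that ties the epidermis to the dermis, was lower at 29.1, 87.9, 29.5 and 44.7 TPM in mouse and 18.2, 15.4, 18.6 and 19.3 TPM in spiny mouse (-1.42). The crosslinking enzyme gene Lox had 85.3, 57.8, 157 and 92.3 TPM in mouse and 27.7, 26.1, 22.5 and 34.1 TPM in spiny mouse (-1.83). Tnxb, a tenascin needed for firm collagen, was 242 ± 36.1 and 101 ± 16.1 TPM (-1.27). Of 42 matrix genes tested, 6 were 2-fold higher and 8 lower (median 0.14, and -0.17 under scaling by total counts), and of the 33 well-matched ones 5 and 6.

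Other secreted genes of the dermis were called in both directions. Thbs1, a thrombospondin that activates TGF-beta, had 68.6, 95.2, 77.5 and 87.7 TPM in mouse and 343, 265.5, 291 and 270.2 TPM in spiny mouse (1.83). Timp1, an inhibitor of matrix proteases, was 17.04 ± 11.6 and 52.5 ± 4.404 TPM (1.61). The stromal protease gene Mmp3 was lower at 148, 36.99, 156 and 92.4 TPM in mouse and 5.101, 3.85, 3.52 and 3.08 TPM in spiny mouse (-4.79). Of 20 fibroblast genes, 4 were 2-fold higher and 5 lower (median -0.16, and 0.05 without mouse replicate 1), and of the 15 well-matched ones 2 and 5 (median -0.77). Under scaling by total counts 3 of 20 were higher and 9 lower, and 3 were lower without mouse replicate 1 or 3 or spiny mouse replicate 3 or 4. Clec3b, or tetranectin, had 935, 308, 857 and 606 TPM in mouse and 156, 211, 116 and 143 TPM in spiny mouse (-2.12). Dpp4, the CD26 marker of a fibroblast lineage that deposits scar collagen in mouse skin, had 61.4, 32.6, 52.8 and 43.3 TPM in mouse and 17.1, 15.8, 15.4 and 15.1 TPM in spiny mouse (-1.58). Pdgfra, carried by most fibroblasts, did not pass the test (36.98 ± 3.65 and 36.5 ± 1.87 TPM, -0.02), whereas Col14a1 (43.8 ± 9.72 and 153 ± 24.7 TPM, 1.80) and Mfap4 (50.1 ± 12.9 and 173 ± 16.9 TPM, 1.79) were higher.

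Genes of hyaluronan, the large sugar polymer of the dermis, were higher in 5 of 14 by the 2-fold rule and lower in 0, and in 4 and 0 of the 10 well-matched ones. Cd44, its receptor, had 135, 152, 135.5 and 130.5 TPM in mouse and 364.5, 308, 336 and 330.5 TPM in spiny mouse (1.28). The synthase gene Has3 was 7.16 ± 3.74 and 16.3 ± 5.48 TPM (1.19). Cemip, which breaks hyaluronan down, was 0.791 ± 0.331 and 4.14 ± 1.45 TPM (2.39). Has2, the main synthase of fibroblasts, did not pass the test (7.64 ± 1.68 and 8.804 ± 3.14 TPM, 0.20). Under scaling by total counts 2 of the 14 were 2-fold higher and the call of Has3 ended (adjusted p = 0.103).

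**Figure D5:**
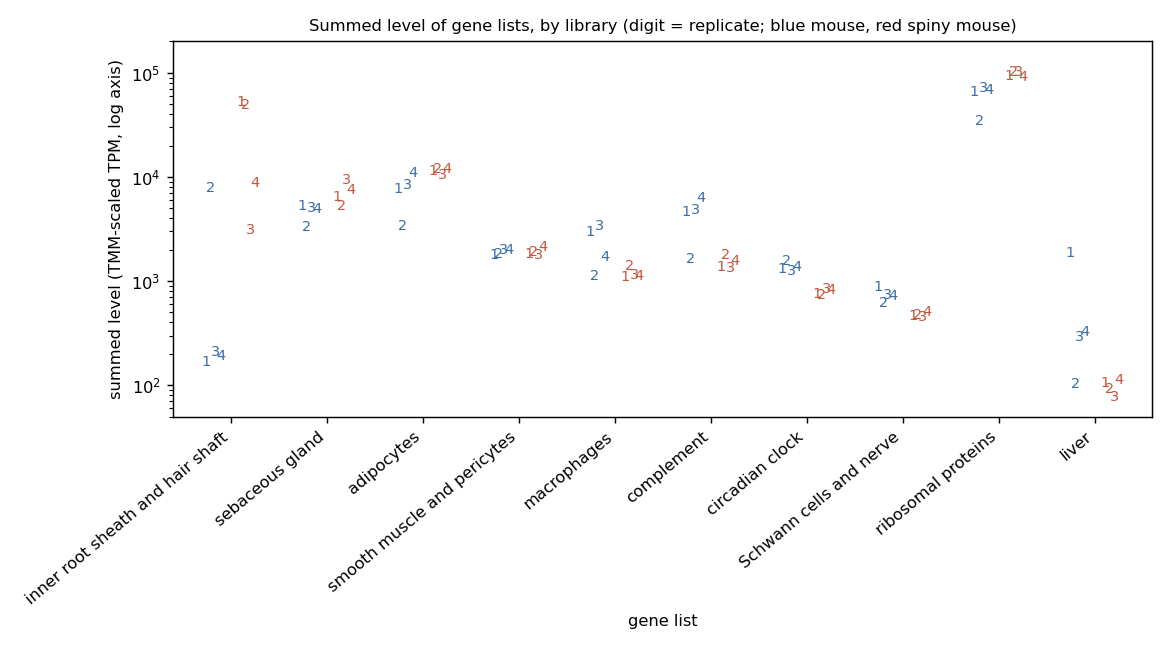
Summed level of each gene list by library, in TPM on a log axis, with mouse in blue, spiny mouse in red and the replicate number as the digit. Mouse replicate 2 lies apart in the hair shaft and ribosomal lists, and mouse replicate 1 in the liver list.

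Most clock genes were lower in spiny mouse. Of 18 tested, 11 were called lower and 4 higher (34.4% and 33.0% over all genes), and 7 and 0 by the 2-fold rule, with a median of -0.84. Their summed levels were 1244 to 1542 TPM in mouse and 728.5 to 837 TPM in spiny mouse. Without the length correction 4 were 2-fold lower and 2 higher. Per1, a repressor of the clock, had 76.9, 167, 73.97 and 103 TPM in mouse and 31.4, 31.8, 40.8 and 41.6 TPM in spiny mouse (-1.53). Nr1d1, the REV-ERB alpha receptor, had 196, 212.5, 144 and 192 TPM in mouse and 73.6, 50.02, 75.2 and 70.3 TPM in spiny mouse (-1.47). Tef, an output factor, was 163 ± 15.3 and 68.8 ± 4.98 TPM (-1.248). Ciart, a repressor in the same loop, was higher at 29.1 ± 4.42 and 45.9 ± 7.92 TPM (0.66), though not under scaling by total counts (adjusted p = 0.199), and Per2 and Cry2 did not pass the test (-0.20 and 0.00). The time of day of sampling is not given in the sources used here, so it cannot be told apart from species.

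Of 29 Hox genes, whose combination marks position along the body, 7 were 2-fold lower and 1 higher (median -0.66; 19.3% and 17.4% over all genes). Of the 20 well-matched ones 4 were lower and 0 higher (17.9% and 12.1% over all well-matched genes). The first pair was 5 and 4 without mouse replicate 2 and 13 and 1 under scaling by total counts. It was 5 and 3 without the length correction (median -0.13). Hoxc10 had 3.98, 2.17, 6.02 and 3.95 TPM in mouse and 1.01, 0.677, 0.214 and 0.499 TPM in spiny mouse (-2.73). Hoxc9 was 7.65 ± 1.34 and 2.73 ± 0.807 TPM (-1.49). Hoxc8 (30.9 ± 5.43 and 35.3 ± 4.78 TPM, 0.19) and Hoxb7 (18.2 ± 0.9596 and 17.8 ± 1.47 TPM, -0.03) did not pass the test. Body site is not given, and cannot be told apart from species either. Immediate early genes, which respond to handling and stress, were 2-fold higher in 1 of 19 and lower in 2, and in 0 and 0 without the length correction. Fos had 44.02, 95.9, 53.5 and 33.9 TPM in mouse and 66.2, 93.2, 58.2 and 59.8 TPM in spiny mouse (0.29). Jun was 153 ± 16.3 and 144 ± 5.53 TPM (-0.09). Neither passed the test, though without mouse replicate 2 Fos did (0.66, adjusted p = 0.0135).

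Genes that handle DMBA were divided before any exposure, with 6 of 30 2-fold higher and 8 lower, and 3 and 2 of the 19 well-matched ones. Under scaling by total counts 3 of 30 were higher and 10 lower. The receptor Ahr, which senses aromatic hydrocarbons, did not pass the test (89.3 ± 14.4 and 97.6 ± 22.5 TPM, 0.13). Its target Cyp1a1, which oxidises them, had 23.5, 7.73, 26.1 and 20.8 TPM in mouse and 50.6, 40.8, 75.2 and 49.3 TPM in spiny mouse (1.46). The feedback repressor Ahrr was 1.97 ± 0.769 and 6.01 ± 1.38 TPM (1.61). Cyp1b1, the enzyme that activates DMBA in skin, was lower by a small margin, with 49.4, 45.9, 52.4 and 51.5 TPM in mouse and 45.3, 41.7, 40.1 and 37.9 TPM in spiny mouse (-0.27, adjusted p = 0.0243). The call ended on leaving out mouse replicate 1, 3 or 4 or spiny mouse replicate 2, 3 or 4 (adjusted p from 0.0625 to 0.0814). Ephx1, the epoxide hydrolase of the same route, had 226, 188, 199 and 229 TPM in mouse and 100.4, 114, 103 and 105 TPM in spiny mouse (-0.99). The glutathione transferases Gstm1 (219.8 ± 42.9 and 471 ± 3.201 TPM, 1.10) and Gstt1 (43.2 ± 14.6 and 3.42 ± 0.536 TPM, -3.65) were called in opposite directions. Gstm genes are close copies, so the first is uncertain.

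Antioxidant genes were higher in 15 of 25 and lower in 4 at the adjusted p threshold, and in 8 and 2 by the 2-fold rule. Only 15 are well matched, and of these 3 were 2-fold higher and 1 lower. Sod3, the superoxide dismutase of the matrix, had 60.8, 20.8, 47.7 and 51.98 TPM in mouse and 133, 157, 167 and 159 TPM in spiny mouse (1.76). Me1, which supplies NADPH, was 248 ± 74.4 and 589.7 ± 96.1 TPM (2.38-fold). The metallothionein Mt1 was lower at 257, 163, 201 and 202 TPM in mouse and 21.3, 18.4, 19.6 and 16.99 TPM in spiny mouse (-3.43). The regulator Nfe2l2 did not pass the test (82.7 ± 10.2 and 90.8 ± 8.87 TPM, 0.13).

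Of 28 genes for TPA receptors, Ras and the EGF receptor pathway, 1 was 2-fold higher and 4 lower (median -0.14), and 2 and 1 without the length correction. Egfr itself had 94.2, 111, 98.2 and 87.6 TPM in mouse and 50.6, 38.9, 40.1 and 43.2 TPM in spiny mouse (-1.18), with separate groups. Hras, the oncogene mutated by DMBA in mouse skin tumours, did not pass the test (143 ± 40.7 and 162 ± 9.4 TPM, 0.18), nor did the TPA receptor Prkca (15.8 ± 5.01 and 13.3 ± 1.64 TPM, -0.24). Prkcd was lower at 67.7 ± 5.32 and 46.7 ± 5.13 TPM (-0.54). Odc1, the polyamine enzyme that TPA induces, was 85.4, 62.1, 94.7 and 79.4 TPM in mouse and 132, 167, 93.3 and 136 TPM in spiny mouse (0.72).

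Trp53, which encodes p53, had 45.3, 48.4, 38.4 and 44.1 TPM in mouse and 129.6, 158, 132 and 129 TPM in spiny mouse (1.64, SE 0.11, adjusted p = 1.87e-06). The groups did not overlap. Its target list did not move one way, as 3 of 28 were 2-fold higher and 3 lower (median -0.02), and 3 and 5 under scaling by total counts. Mdm2, the ligase that degrades p53, was higher at 51.6 ± 5.82 and 82.1 ± 3.05 TPM (0.67), though not under scaling by total counts (adjusted p = 0.0562). The arrest gene Cdkn1a had 238, 133, 252 and 270.4 TPM in mouse and 234, 253, 180 and 177 TPM in spiny mouse. It did not pass the test (-0.08). The death gene Bbc3 was lower at 24.7 ± 3.62 and 6.26 ± 1.49 TPM (-1.98), as was Fas at 17.9 ± 1.36 and 8.38 ± 1.64 TPM (-1.09). Of 33 DNA repair genes 5 were 2-fold higher and 5 lower (median -0.20), and 5 and 3 without mouse replicate 2 or spiny mouse replicate 2. The checkpoint kinase Chek2 was lower at 10.8 ± 1.31 and 3.52 ± 0.409 TPM (-1.62). Mgmt, which removes alkyl groups from guanine, was higher at 6.36 ± 0.704 and 15.6 ± 1.13 TPM (1.29) and Ung, the uracil glycosylase, at 6.03 ± 0.582 and 23.2 ± 1.88 TPM (1.95). Of 29 cell cycle genes 3 were 2-fold higher and 1 lower. This turned to 0 and 2 under scaling by total counts or without the length correction, and to 1 and 2 without mouse replicate 3. Mki67 was lower at 48.4 ± 15.1 and 25.3 ± 3.46 TPM (-0.94) and Top2a did not pass the test (31.6 ± 4.24 and 35.2 ± 5.21 TPM, 0.15).

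The calls of ribosomal protein genes depended on gene length and on which gene models were kept. Of 55 tested, 26 were 2-fold higher in spiny mouse and 2 lower (median 0.96). Without the length correction the counts were 4 and 5, under scaling by total counts 17 and 3, and the 16 well-matched ones gave 2 and 1 (median 0.11). Their copies elsewhere in the genome also make them uncertain. Of 25 housekeeping genes, 5 were 2-fold higher and 2 lower (median 0.45), and the well-matched ones among them had a median of -0.01. Genes with at least 20 TPM in one species and fewer than 3 counts in every library of the other numbered 78 on the mouse side and 19 on the spiny mouse side. Defb6, Ifi27l2a, Retnla, Lce1i and Orm1 are examples, and whether the annotations account for them was not tested. Lists for blood, liver and mammary tissue, which a skin sample can carry along, gave 0 genes 2-fold higher and 4 lower of 6 erythroid genes tested, 0 and 1 of 6 liver genes (4 and 2 without mouse replicate 1), and 4 and 2 of 8 mammary genes. The mammary genes summed to 582 and 562 TPM in spiny mouse replicates 1 and 2 and to 68.1 and 77.0 TPM in replicates 3 and 4, against 56.4 to 97.6 TPM in mouse. Of 8 B cell genes 2 were higher and 2 lower. Among the genes named above as called, leaving out the length correction ended the calls of Cdh5, Csf3r, Itgb1, Krt15, Mitf, Per1 and Plin1.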

How the data were processed

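Polyadenylated RNA of 8 untreated skin samples was sequenced as stranded mRNA libraries, per the labels' protocols. The authors deposited raw counts per gene in 1 table for each species. Per the file headers, read pairs with both ends mapped were counted with featureCounts 2.0.3, with no strand option, against GRCm39 with the Ensembl 108 annotation for mouse and against AcoCah2 for spiny mouse. Antisense and overlapping genes could therefore not be separated, and pairs matching several genes or places were not counted. Per the submitters' processing notes, Trim Galore and HISAT2 were used and GRCm39 is listed for both species; their versions are not given in the sources used here. The series' design field speaks of fibroblasts after irradiation, whereas its title and sample labels speak of skin, and the labels were followed. Columns of untreated samples were matched to samples by species letter and replicate number. Their names carry a code, AC, that the labels do not explain, and only the name for mouse replicate 2 has a further suffix.

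Mouse symbols came from GENCODE M39 by identifier (56236 matched, 744 did not). Of 56980 mouse and 19818 spiny mouse genes, 18110 were joined on symbols found once in each table, holding 89.5% to 90.7% of mouse and 97.4% to 98.0% of spiny mouse counts. The median spiny mouse to mouse length ratio was 0.881. Counts were fitted in edgeR 4.0.16 (R 4.3.3) with filterByExpr, and with an offset of gene length and TMM effective library size, by the quasi-likelihood F test with Benjamini-Hochberg adjustment over 14911 genes. The SE is the log2 difference over the square root of F. On simulated data with the same design, 100% of genes changed by 2 on the log2 scale and 35% of those changed by 1 were recovered. The simulation gave every gene the same dispersion and changed only a small share of the genes between species. These shares therefore need not hold for the real libraries. Intervals and p-values cover these libraries only. Alternatives were total, upper-quartile and DESeq2 1.42.0 scaling, TMM without abundant tissue genes, the DESeq2 test, other filters, no length correction, a stricter length limit, a robust fit, all 16 samples, a replicate block and each library left out; the well-matched set was added after the data were seen.

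The comparison, the 39 gene lists and the rule for named genes were chosen with earlier results of these data known. The rule took the 12 largest called differences each way with separate groups, at least 20 TPM in the higher species, at least 10 counts in every library of the lower species and lengths within 2-fold, the 4 most abundant members and the largest called differences of each list, and the 10 most abundant genes of each species. Other genes were chosen after their values were seen.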

Additional observations from a re-analysis of the deposited data

Results flagged for a closer look

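In a group of 4 libraries, 1 value was singled out where its gap to the nearest other value as a share of the whole range was above Dixon's critical value, a limit that chance passes in about 1 in 20 groups. Of 126 groups checked, 13 held such a value, so some of them can be due to chance. Mouse replicate 2 accounts for most of these values. Its summed hair shaft and inner root sheath genes reached 7849 TPM, against 166.7 to 209 TPM in the other mouse libraries. Its ribosomal protein genes summed to 34070 TPM (65810 to 71750 TPM in the others), its Langerhans, dendritic cell and MHC class II genes to 1900 TPM (3767 to 4131 TPM), and its p53 target and cell cycle inhibitor genes to 3756 TPM (7245 to 7501 TPM). Among the largest differences, Dsg1a was 464.6 TPM there (1153 to 1224 TPM), Prdx6 74.9 TPM (118.5 to 122 TPM), Ube2v1 1.82 TPM (0.744 to 0.914 TPM) and B3gnt2 1.51 TPM (0.966 to 1.04 TPM).

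Mouse replicate 1 held liver genes at a sum of 1857 TPM, against 102 to 325 TPM in the other mouse libraries. Mouse replicate 3 had the highest sum of extracellular matrix genes, 12460 TPM against 8386 to 8939 TPM. In spiny mouse, replicate 3 had B3gnt2 at 46.0 TPM (54.0 to 55.1 TPM in the others) and cytokine and chemokine genes at a sum of 1236 TPM (991.5 to 1019 TPM), and replicate 2 had DNA repair genes at 725.8 TPM (715.6 to 717 TPM).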

How the results depend on the processing

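The test called 10055 genes, 2591 of them at least 2-fold higher and 2880 at least 2-fold lower in spiny mouse. A stricter limit on the length ratio left 6855 genes and gave 4170, 861 and 1361. The 10120 well-matched genes gave 6327, 1222 and 1809. Besides holding fewer genes, both sets lost more on the higher side. Higher calls were 36% and 41.8% of all calls in them, against 48.9% in the main test. No other alternative moved a count by more than 1.5 times: scaling by total counts gave 9721, 1863 and 3857, no length correction 8881, 2127 and 2366, DESeq2 10384, 2605 and 2878, and leaving out 1 library 9357 to 11388, 2574 to 2832 and 2841 to 2988, with most calls without mouse replicate 2. With the replicate number as a block the counts were 9502, 2692 and 2806. The labels do not say that numbers pair animals, and the deviations of same-numbered libraries correlated at -0.339, 0.295, 0.299 and 0.212, so the numbers were not read as pairs. Of the 394 genes recomputed, leaving out the length correction turned the sign of 13: Cd3g (-0.38), Csf3r (0.16), Cyb5a (-0.35), Emcn (-0.02025), Hoxb7 (0.82), Irf8 (-0.24), Jund (0.78), Maf (-0.0571), Pdgfrb (0.32), Rora (0.28), Tnni2 (-0.21), Ugdh (-0.53) and Xrcc5 (0.16). Alb, -1.79 with all libraries and not called, ranged from -2.20 without mouse replicate 2 to 3.46 without mouse replicate 1 when 1 library was left out, and was 3.17 without mouse replicates 1 and 2. Genes under about 1 TPM rest on few counts. Gene copies, annotation gaps and exon overlap limit single genes as well.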
